A study of Mus musculus with 6 samples.

Results

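The genes described here are 6 Toll-like receptors and 4 proteins that work with them, which were Tlr1, Tlr2, Tlr3, Tlr4, Tlr7, Tlr9, Unc93b1, Ly86, Cd180 and Ly96. They were chosen by name, as the array probes annotated to exactly 1 of these symbols, and earlier results of the same comparison were known when they were listed. All 10 were found among the 19938 genes with such a probe, each with a single probe. The comparison of Blnk with pMIG samples chose them, so their values are given as a description with no p-values. Where the text counts how many of them passed the threshold of the fit across all genes, the count is descriptive and supports nothing.

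Toll-like receptors sense microbial products through a leucine-rich ectodomain and signal through adaptors such as MYD88 to NF-kB and interferon regulatory factors. TLR1, TLR2 and TLR4 act at the cell surface, while TLR3, TLR7 and TLR9 meet nucleic acids in endosomes, to which the membrane protein UNC93B1 carries them. MD-2, encoded by Ly96, binds lipopolysaccharide together with TLR4, and CD180 (RP105), a TLR relative of B cells without a signalling TIR domain, forms a complex with MD-1, encoded by Ly86. In B cells these receptors are best known for proliferation and antibody secretion on contact with microbial DNA, RNA and lipids.

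RNA was measured on 6 Affymetrix arrays, with 1 array for each sample. All samples were pre-B cells of Balb/c mice aged 4 weeks that the oncogenic kinase BCR-ABL1, made by the Philadelphia chromosome of acute lymphoblastic leukemia, had transformed, and that carry the Blnk KO genotype per the labels. The Blnk group (3 samples) was transduced with Blnk, also called Slp65, the adaptor that couples the pre-B cell receptor to its effector enzymes. The pMIG group (3 samples) was transduced with pMIG, a GFP-bearing retroviral vector. GFP-positive cells were sorted in both groups at day 5 after transduction, so every sample passed a sort. Whether the 3 samples of a group were grown apart or taken from different mice is not stated in the labels. The p-values below therefore rest on the spread among these arrays alone, which may be technical.

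The arrays were alike in overall brightness, with median intensities of 69 to 70 in the Blnk samples and 67 to 69 in the pMIG samples. Arrays of 1 group correlated at 0.9951 or more over all genes, a description since genes are not independent. Blnk itself, the transduced gene, was brighter in every Blnk sample. It read 2714, 3342 and 3022 in the Blnk samples and 972, 926 and 1013 in the pMIG samples. The labels do not say which part of the gene its probe reads or which part the knockout lacks, so the signal in the pMIG samples checks no genotype. Markers of the labelled cell type were present. Of 11 measured B-lineage markers, the 3 with the highest signal were Igll1, a surrogate light chain, at 9221 ± 222 with Blnk and 10485 ± 350 with pMIG, Cd24a, a surface marker of early B cells, at 6319 ± 452 with Blnk and 5616 ± 451 with pMIG, and Cd79a, a signalling chain of the receptor, at 6126 ± 227 with Blnk and 4943 ± 53.8 with pMIG (SD, n = 3 each). Within that list Blk and Cd79a rose, Vpreb1 fell, and the 8 others did not pass, while Rag1 was dim (a mean log2 intensity below the 40th percentile of all genes) at 31.3 with Blnk and 29.7 with pMIG.

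Across all 19938 genes, limma called 720 (3.61%) at an adjusted p under 0.05, of which 500 (2.51%) were higher and 220 (1.10%) lower with Blnk. Repeating quantile normalization gave 411 higher and 327 lower, and centring arrays on their medians 417 higher and 291 lower. The arrays of the groups did not overlap for 3981 genes (20.0%), with all Blnk arrays above all pMIG arrays for 2357 (11.8%) and below them for 1624 (8.15%). Of the 10 Toll-like receptor genes and partners, 6 were called higher and 0 lower, and these were the same 6 whose arrays did not overlap, namely Ly86, Ly96, Tlr1, Tlr7, Tlr9 and Unc93b1. These counts follow from a choice made on this comparison and nothing is read from them. The median difference over the 10 genes was 0.62 on the log2 scale, beside a median of 0 over all genes tested. The other 4, which were Cd180, Tlr2, Tlr3 and Tlr4, differed by between -0.09 and 0.15 on the log2 scale, with overlapping arrays. By the RefSeq annotation, Ly86 and Cd180 both lie on chromosome 13, Ly96 on 1, Tlr2 on 3, Tlr4 on 4, Tlr1 on 5, Tlr3 on 8, Tlr9 on 9, Unc93b1 on 19 and Tlr7 on X.

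Promoters of 3 of these genes are printed first, since they include the partner with the widest difference (Ly86), the receptor that it serves and that did not separate the groups (Cd180), and the endosomal receptor with the widest difference (Tlr9). RefSeq sequences of the GRCm38.p6 build, which is the C57BL/6J reference and not the Balb/c strain of these cells, run from 250 bases before to 50 bases after an annotated start. Of the 10 genes, 6 matched an entry. Tlr4, Tlr7, Unc93b1 and Ly96 did not, so no window of theirs was searched. Each is written 5′ to 3′ on the strand of the gene, and capitals mark matches to the motifs named below.
Ly86, chr13:37345095-37345394, + strand: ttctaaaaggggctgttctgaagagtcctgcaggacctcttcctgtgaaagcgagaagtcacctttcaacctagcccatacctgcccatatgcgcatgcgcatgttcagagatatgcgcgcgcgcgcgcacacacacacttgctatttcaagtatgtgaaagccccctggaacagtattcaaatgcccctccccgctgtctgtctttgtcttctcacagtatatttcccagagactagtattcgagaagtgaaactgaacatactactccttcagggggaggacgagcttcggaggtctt
Cd180, chr13:102693297-102693596, + strand: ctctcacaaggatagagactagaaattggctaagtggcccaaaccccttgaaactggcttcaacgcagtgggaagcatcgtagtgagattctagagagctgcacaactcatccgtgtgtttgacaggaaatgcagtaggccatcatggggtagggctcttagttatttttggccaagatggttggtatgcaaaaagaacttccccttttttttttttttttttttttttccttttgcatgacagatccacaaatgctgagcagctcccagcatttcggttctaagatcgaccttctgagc
Tlr9, chr9:106222348-106222647, + strand: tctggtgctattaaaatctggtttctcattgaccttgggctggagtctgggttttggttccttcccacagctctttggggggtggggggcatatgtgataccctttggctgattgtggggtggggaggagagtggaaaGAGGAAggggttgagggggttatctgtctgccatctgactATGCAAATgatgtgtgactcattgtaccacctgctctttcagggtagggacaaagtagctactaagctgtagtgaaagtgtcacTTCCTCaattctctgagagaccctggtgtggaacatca

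The motifs were searched on both strands as GAGGAA, the core bound by the ETS factors PU.1 and SPI-B, as ATGCAAAT, the octamer bound by OCT1 and OCT2, and as the longer motifs of ETS-IRF composites, interferon response elements, NF-kB and EBF. The octamer was added after the Tlr9 sequence had been read, and the ETS-IRF and interferon motifs can overlap each other and GAGGAA. The Tlr9 window held GAGGAA at base -112, its reverse complement TTCCTC at base 13 after the start, and the octamer ATGCAAAT at base -72, counted from the annotated start. Of all 32851 promoter windows of this length, 28.3% held GAGGAA in either direction and 1.74% held the octamer. The Ly86 and Cd180 windows held none of the 6 motifs, and neither did a further Cd180 window that is not printed. Among the other windows of these genes, a start of Tlr1 had GAGGAA at base -23, and Tlr3 had an NF-kB motif at base -211, one that 0.411% of windows held. Of all windows, 2.72% held the ETS-IRF motif, 3.44% the interferon motif and 0.904% the EBF motif. A match is a run of letters and no measured binding site, and its absence says only that these letters are not in this window.

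Ly86, which encodes MD-1, differed most of the 10 genes. Its intensity was 542, 679 and 715 in the Blnk samples and 124, 113 and 112 in the pMIG samples. Every Blnk sample lay far above every pMIG sample, and Blnk 1 was the lowest of its group. The mean was 645 ± 91.3 with Blnk and 116 ± 6.66 with pMIG (SD, n = 3 each), a 5.51-fold difference (log2 difference 2.46, SE 0.113). In bulk samples such as these, fewer cells with a transcript and less transcript in each cell cannot be told apart.

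Cd180, the receptor that MD-1 pairs with, did not separate the groups. It read 1487, 1764 and 1550 in the Blnk samples and 1351, 1537 and 1436 in the pMIG samples. The highest pMIG sample lay above the lowest Blnk sample, so the groups overlapped. The log2 difference was 0.15 (SE 0.0899).

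The genes with profiles most like that of Ly86 over the 6 arrays were Fcrl5, a B-cell surface protein related to Fc receptors, Ifi30, a lysosomal thiol reductase, Pim2, a survival kinase, and Ly6d, a GPI-anchored protein that appears at B-lineage commitment. Likeness was the Euclidean distance between profiles of log2 intensity minus the mean of the pMIG arrays. By this measure a gene with a group difference of another size is far, whatever its pattern within the groups. The distance was 0.260, 0.313, 0.319 and 0.379 for these genes in that order. The nearest of the other 9 genes described here, Tlr9, stood at 2.41, a distance that its smaller group difference brings with it. Intensities of Fcrl5 averaged 498 ± 88.8 with Blnk and 83.7 ± 4.16 with pMIG, and those of Ifi30 4375 ± 648 with Blnk and 887 ± 18.6 with pMIG (SD, n = 3 each). For Cd180 the nearest genes were 4930474N05Rik, Gm1322, Olfr1484 and Unc119, at distances of 0.0647 to 0.0972, none of which was called, and the first 3 of these averaged an intensity of 23.3 or less in either group.

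Ly96, which encodes the lipopolysaccharide-binding partner of TLR4, was higher in every Blnk sample. It read 315, 274 and 298 in the Blnk samples and 154, 194 and 179 in the pMIG samples. The means were 296 ± 20.6 with Blnk and 176 ± 20.2 with pMIG (SD, n = 3 each), a 1.69-fold difference. Tlr4, its receptor, read 303, 254 and 254 in the Blnk samples and 239, 319 and 306 in the pMIG samples. The Tlr4 samples overlapped throughout, with the lowest and the highest value both in the pMIG group, and the log2 difference was -0.09 (SE 0.127). For CD180 with MD-1 and for TLR4 with MD-2 alike, the arrays of the small partner separated the groups and those of the receptor overlapped. The difference between partner and receptor was not tested, and the genes were chosen with these values known.

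Among the surface receptors for bacterial lipopeptides, Tlr1 separated the groups and Tlr2 did not. Tlr1, which pairs with TLR2 to bind triacylated lipopeptides, read 53, 72 and 78 in the Blnk samples and 33, 35 and 40 in the pMIG samples. The gene was dim, with means of 67.7 ± 13.1 with Blnk and 36.0 ± 3.61 with pMIG (SD, n = 3 each), and its log2 difference was 0.90 (SE 0.149), or 0.68 with 16 added to each intensity before the logarithm. The spread between the Blnk samples was the widest of the 10 genes on the log2 scale, with an SD of 0.29. Tlr2, the shared partner of these pairs, read 94, 105 and 114 in the Blnk samples and 95, 90 and 98 in the pMIG samples. The lowest Blnk sample for Tlr2 lay inside the pMIG range, and the log2 difference was 0.14 (SE 0.0881).

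Tlr9, the endosomal receptor for unmethylated CpG DNA, was higher in every Blnk sample. It read 387, 442 and 437 in the Blnk samples and 198, 197 and 203 in the pMIG samples. The pMIG samples lay close together and far below the Blnk samples, and the means of 422 ± 30.4 with Blnk and 199 ± 3.21 with pMIG (SD, n = 3 each) differed 2.11-fold (log2 difference 1.08, SE 0.0759). Unc93b1, the carrier of the endosomal receptors, read 2125, 2437 and 2605 in the Blnk samples and 1476, 1452 and 1478 in the pMIG samples. Here too the pMIG samples were close together, with the Blnk samples all above them, at means of 2389 ± 244 with Blnk and 1469 ± 14.5 with pMIG (SD, n = 3 each), a 1.62-fold difference.

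The other endosomal receptors among these genes, Tlr7 and Tlr3, were dim, while Tlr9 was not. Tlr7, which senses single-stranded RNA, read 23, 24 and 21 in the Blnk samples and 18, 14 and 15 in the pMIG samples. The groups did not overlap, but they were only 3 intensity units apart at their nearest, and the deposited values are whole numbers, so that 1 unit at the pMIG mean is a step of 0.09 on the log2 scale. The log2 difference of Tlr7 was 0.54 (SE 0.107), and 0.29 with 16 added to each intensity before the logarithm. Tlr3, the receptor for double-stranded RNA, read 30, 22 and 24 in the Blnk samples and 25, 23 and 29 in the pMIG samples. Its samples overlapped, with a log2 difference of -0.02 (SE 0.134).

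**Figure D1:**
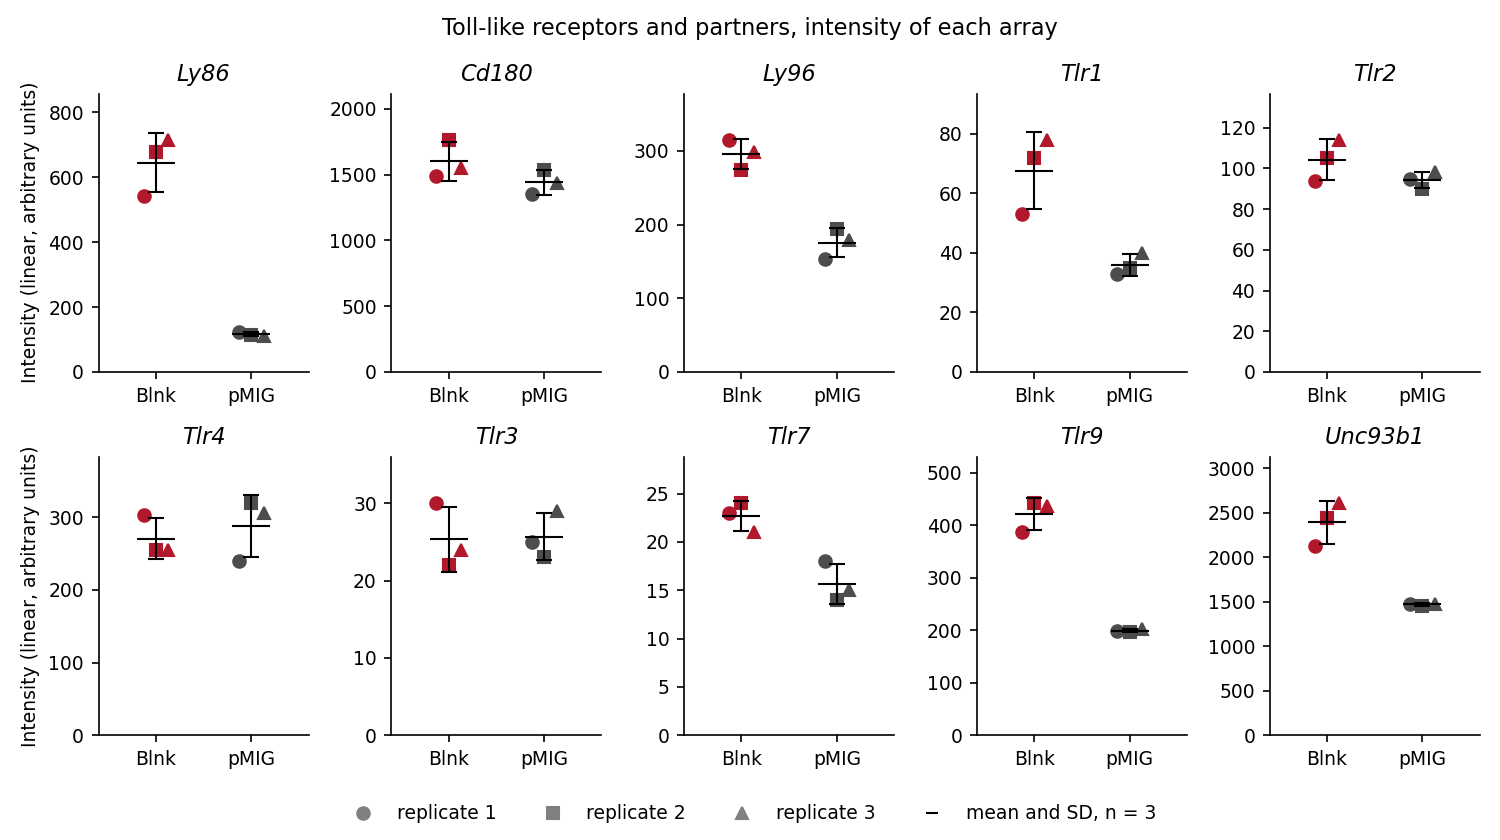
Intensity (linear, arbitrary units, axes from 0) of the 10 genes on each of the 6 arrays, Blnk left and pMIG right, with symbols for the replicate numbers and bars for the mean and SD (n = 3). The groups are apart for Ly86, Ly96, Tlr1, Tlr7, Tlr9 and Unc93b1 and overlap for Cd180, Tlr2, Tlr3 and Tlr4. Levels are not comparable between panels, since each probe has its own response.

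With 1 array left out at a time, the differences of the 6 genes with separate groups ran from 2.38 to 2.58 for Ly86, from 1.04 to 1.14 for Tlr9, from 0.63 to 0.78 for Unc93b1, from 0.66 to 0.83 for Ly96, from 0.78 to 1.06 for Tlr1 and from 0.46 to 0.64 for Tlr7, all on the log2 scale. For Ly86, Tlr1, Tlr9 and Unc93b1 the upper end came without Blnk 1, their lowest Blnk sample. The number of the 10 genes past the threshold of the fit across all genes, 6 with all arrays, was 4 without Blnk 1, Blnk 2 or pMIG 2, 5 without pMIG 1, and 3 without Blnk 3 or pMIG 3. As the genes were chosen on this comparison, these numbers support nothing about them.

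**Figure D2:**
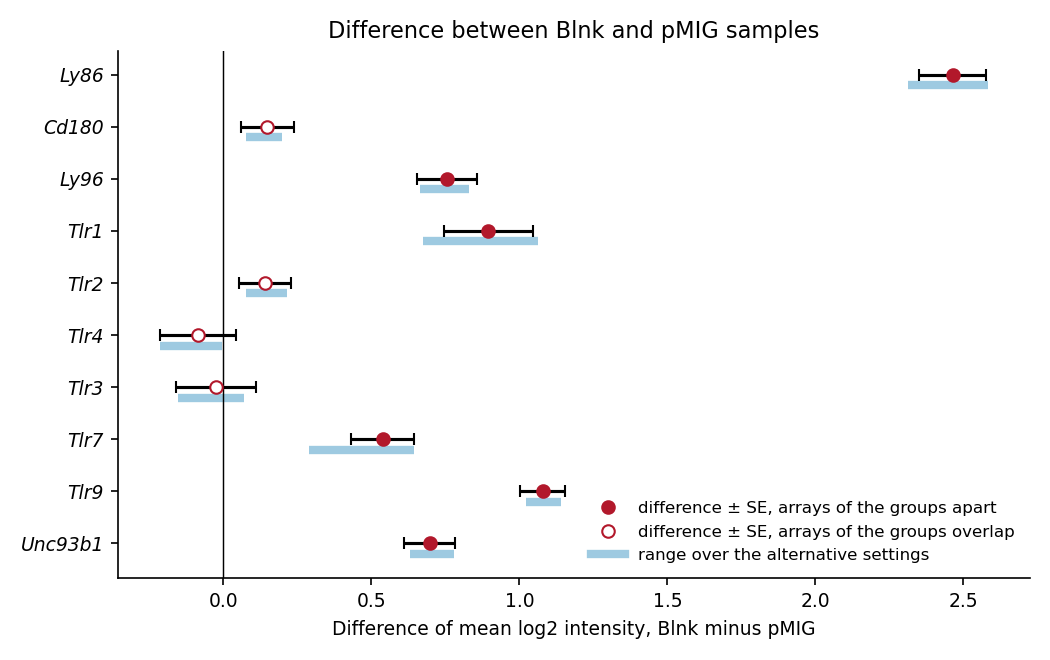
Difference of mean log2 intensity, Blnk minus pMIG, for the 10 genes, as points with SE. Filled points mark genes whose arrays did not overlap, open points those that overlapped, and blue bars the range over up to 13 alternative settings, from 2.31 to 2.58 for Ly86 and from -0.15 to 0.07 for Tlr3.

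Within the Blnk group, replicate 1 was the lowest of the 3 samples for 6 of the 10 genes, which were Ly86, Cd180, Tlr1, Tlr2, Tlr9 and Unc93b1. For Ly96 and Tlr3 replicate 1 was instead the highest, and for Tlr4 too, with replicates 2 and 3 tied below it. Replicate 1 also had the lowest Blnk transcript, at 2714. The same sample was lowest for 282 of the 500 genes called higher (56.4%), against 28% of all genes. Whether the lower Blnk level has a part in these values was not tested.

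The chromosomal neighbours of the 10 genes were read beside them. Of the 20 nearest measured genes, 1 on either side of each of the 10, none was called by limma, beside 3.61% of all genes. With so few neighbours and so small a share, nothing is read from this count. Tlr6, which lies beside Tlr1 and is its close relative, read 127, 156 and 163 in the Blnk samples and 100, 108 and 120 in the pMIG samples. The Tlr6 samples did not overlap, but the log2 difference of 0.44 (SE 0.115) did not pass (limma adjusted p = 0.0979). Klf3, the transcription factor gene on the other side of Tlr1, was at 56.3 ± 5.69 with Blnk and 38.7 ± 5.13 with pMIG (SD, n = 3 each; log2 difference 0.55, limma adjusted p = 0.0536). Tlr8, beside Tlr7 on the X chromosome, read 20, 18 and 20 in the Blnk samples and 26, 24 and 18 in the pMIG samples, with overlapping groups. Tlr1 and Tlr6 are alike in sequence, and cross-hybridization of their probes was not tested.

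The wider Toll-like receptor pathway was examined through 7 lists, with 97 genes measured beyond the 10. In all, 17 of these rose and 2 fell, beside 2.51% and 1.10% of all genes, and their median log2 difference was 0.07. Of these 19 genes, 8 remained past the threshold whichever array was left out, 6 in some cases and 5 in none. When an array was dropped the pathway count fell to 11 without Blnk 1, 10 without Blnk 2 or Blnk 3, 9 without pMIG 1 or pMIG 3, and 12 without pMIG 2. These lists were written with part of the earlier results known, so their counts are no independent evidence.

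Of the 4 other Toll-like receptors measured (Tlr6, Tlr8, Tlr12 and Tlr13), limma called 0, with 1 at an unadjusted p under 0.05. Tlr5 and Tlr11 were listed but not measured. The median log2 difference was -0.05, but 3 of the 4 (Tlr8, Tlr12 and Tlr13) were dim, so this median says little about the family. Tlr6 passed with dim genes left out (adjusted p = 0.0307) and with an intensity trend in the variance prior (adjusted p = 0.0204). The chaperones, coreceptors and processing proteases contained 6 genes of 13 that rose and 0 that fell, with a median of 0.25. They were proteases of the endosome, a transporter, a scavenger receptor and a chaperone. Legumain (Lgmn), an endopeptidase that can cleave the TLR9 ectodomain in endosomes, was at 2198 ± 136 with Blnk and 1320 ± 42.5 with pMIG (SD, n = 3 each; log2 difference 0.73, limma adjusted p = 0.00173). Cathepsin S (Ctss) read 1550, 1501 and 1770 in the Blnk samples and 845, 996 and 954 in the pMIG samples (limma adjusted p = 0.00415).

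Slc15a4, a lysosomal transporter needed for endosomal TLR signalling, read 977, 1088 and 1126 in the Blnk samples and 695, 683 and 667 in the pMIG samples (log2 difference 0.64, limma adjusted p = 0.00386). These 3 genes, Lgmn, Ctss and Slc15a4, passed without any single array. Cathepsin B (Ctsb) rose by 0.70 on the log2 scale (limma adjusted p = 0.0102) but did not pass without Blnk 2 (0.0693), pMIG 1 (0.0568) or pMIG 3 (0.0666). Cd36, a scavenger receptor that assists TLR2 heterodimers, rose by 0.40 (limma adjusted p = 0.0149), and Hsp90b1, the chaperone gp96 that folds Toll-like receptors, by 0.38 (limma adjusted p = 0.0308). Neither passed with any array left out, where Cd36 lay between 0.0525 (Blnk 1 dropped) and 0.0716 (Blnk 3 dropped) and Hsp90b1 between 0.0748 (Blnk 3 dropped) and 0.117 (pMIG 2 dropped). Cd14, the lipopolysaccharide coreceptor, was dim, at 29.7 ± 2.52 with Blnk and 32.7 ± 7.09 with pMIG (SD, n = 3 each).

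Among adaptors and proximal kinases 2 of 18 rose and 0 fell, with a median of 0.07. Irak2, a kinase-like component of the MYD88 complex, read 102, 111 and 126 in the Blnk samples and 56, 62 and 66 in the pMIG samples. The groups were well apart and the log2 difference of 0.88 (limma adjusted p = 0.00331) passed without any single array. Myd88 encodes the adaptor of the Toll-like receptors described here other than TLR3. It read 449, 430 and 474 in the Blnk samples and 319, 346 and 301 in the pMIG samples. The log2 difference was 0.49 (limma adjusted p = 0.0163). Of the arrays left out, Myd88 passed without pMIG 2 alone, and the adjusted p was 0.0718 without Blnk 1, 0.0596 without Blnk 2, 0.0828 without Blnk 3, 0.0681 without pMIG 1 and 0.0890 without pMIG 3. Ticam1, which encodes the TLR3 adaptor TRIF, read 200, 216 and 234 in the Blnk samples and 170, 176 and 156 in the pMIG samples and did not pass (log2 difference 0.37, limma adjusted p = 0.0639).

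Of 13 genes listed as brakes on the pathway, 1 rose and 1 fell, with a median of 0.10. Nfkbie, an inhibitor of NF-kB, was not in this list but was counted with the NF-kB subunits and response genes below. Atf3, a stress-induced repressor of TLR response genes, fell by 0.50 on the log2 scale, at 120 ± 5.51 with Blnk and 171 ± 7.37 with pMIG (SD, n = 3 each; limma adjusted p = 0.00918, and 0.0568 without pMIG 3). Zc3h12a, an RNase that degrades cytokine transcripts, rose by 0.39 (limma adjusted p = 0.0414), but missed the threshold whichever array was dropped, at 0.0641 (without pMIG 2) to 0.165 (without pMIG 3).

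Of 21 NF-kB subunits and TLR response genes, 6 rose and 0 fell, with a median of 0.13. Among the 21, 10 were dim, and the subunit gene Nfkb1 was listed but not measured. The chemokine Ccl3 averaged 1471 ± 103 with Blnk and 227 ± 26.8 with pMIG (SD, n = 3 each; log2 difference 2.70, limma adjusted p = 2.83e-05). The costimulatory receptor Cd40 read 169, 197 and 189 in the Blnk samples and 77, 74 and 78 in the pMIG samples (log2 difference 1.27, limma adjusted p = 0.000147). Nfkbie, an inhibitor of NF-kB, and Nfkb2, a subunit of the alternative pathway, rose by 0.97 and 0.69 on the log2 scale (limma adjusted p = 0.000488 and 0.00155), and these 4 genes passed without any single array. Relb rose by 0.38 (limma adjusted p = 0.0352) and Ccl4 by 0.43 (limma adjusted p = 0.0364), but neither passed with any array left out, where Relb lay between 0.0744 (Blnk 2 dropped) and 0.137 (Blnk 3 dropped) and Ccl4 between 0.0531 (pMIG 1 dropped) and 0.164 (pMIG 3 dropped). Among cytokines that did not pass, Tnf read 307, 307 and 312 in the Blnk samples and 281, 242 and 304 in the pMIG samples, without overlap (log2 difference 0.17, limma adjusted p = 0.458). Il6 read 6 in each Blnk sample and 5 to 7 in the pMIG samples, and Il10 read 13 to 15 in the Blnk samples and 14 to 15 in the pMIG samples, values near the bottom of the array range, and Il1b and Il12b were dim with overlapping groups.

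The interferon arm had 1 of 13 genes up and 1 down, with a median of -0.02. Of these 13 genes 7 were dim, which limits what the median can show. Irf1, a transcription factor downstream of TLR9 and interferon, read 375, 479 and 488 in the Blnk samples and 271, 292 and 280 in the pMIG samples (log2 difference 0.66, limma adjusted p = 0.0173). Its 2 probes disagreed: the dimmer one stood at 58.7 ± 7.09 with Blnk and 59.3 ± 6.43 with pMIG (SD, n = 3 each), and with the mean of the probes Irf1 did not pass (0.175). With 1 array left out Irf1 passed without Blnk 1 alone, and otherwise reached 0.0638 (without pMIG 2) to 0.101 (without pMIG 3). Ifit1, an interferon-induced RNA-binding protein, was dim and fell to 17, 17 and 16 in the Blnk samples, against 25, 20 and 25 in the pMIG samples (log2 difference -0.48, limma adjusted p = 0.0459). With 16 added to each intensity the log2 difference was -0.27 and Ifit1 did not pass (0.0582), and when an array was dropped it passed without pMIG 2 alone, with 0.192 without pMIG 3 at most. Irf7, the factor that TLR7 and TLR9 act through for type I interferon, read 68, 86 and 83 in the Blnk samples and 88, 70 and 79 in the pMIG samples, with overlapping groups.

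Among 15 pattern and nucleic-acid sensors outside the family, 1 rose and 0 fell, with a median of 0.05. The gene that rose was Sting1 (Tmem173), the adaptor of cytosolic DNA sensing, which read 1965, 2017 and 2044 in the Blnk samples and 1385, 1478 and 1560 in the pMIG samples (log2 difference 0.45, limma adjusted p = 0.0149). With 1 array left out it passed without pMIG 3 alone, and reached 0.0511 (without pMIG 1) to 0.0755 (without Blnk 3) otherwise.

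**Figure D3:**
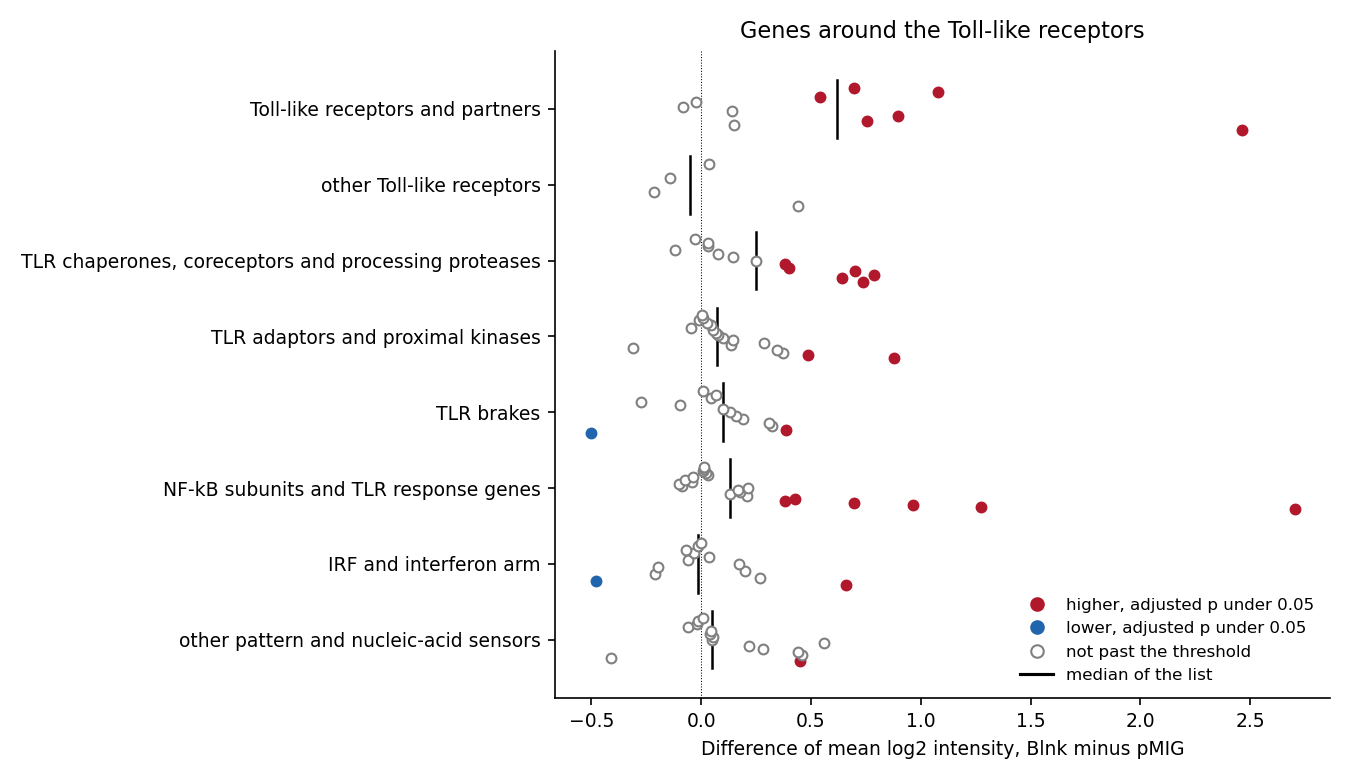
Difference of mean log2 intensity, Blnk minus pMIG, for each measured gene of the 10 Toll-like receptors and partners and of 7 pathway lists. Red and blue points are genes called higher or lower by limma, open points those not past the threshold, and black bars list medians. The medians run from -0.05 for the other Toll-like receptors, 3 of 4 of them dim, to 0.62 for the 10 genes chosen on this comparison.

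Toll-like receptors and their partners are also expressed by myeloid and dendritic cells, so markers of these cells were read beside them. The summed intensity of 16 myeloid markers was 956 to 1048 in the Blnk samples and 737 to 744 in the pMIG samples. Of these markers 2 rose and 0 fell, Mrc1 (194 ± 13.6 with Blnk and 75.7 ± 9.29 with pMIG) and Fcgr1 (242 ± 13.9 with Blnk and 145 ± 13.4 with pMIG; SD, n = 3 each), and Cd68, at 143 with Blnk and 93.7 with pMIG, had arrays that did not overlap but did not pass (limma adjusted p = 0.0866). These 3 markers summed to 531 to 636 in the Blnk samples and 288 to 331 in the pMIG samples. The other 13 overlapped between the groups, and so did their sum, at 412 to 445 in the Blnk samples and 407 to 449 in the pMIG samples. The markers were split by whether their own arrays overlapped, so how these sums compare between the groups follows largely from the split. Of the 16 markers, 12 were dim. None of the markers read 0, since the lowest value of any probe on these arrays was 3, and Lyz2, the lysozyme of myeloid cells, read 31 to 33 in the Blnk samples and 28 to 31 in the pMIG samples.

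Of 8 dendritic cell markers 1 rose, Siglech, at 118 ± 18.6 with Blnk and 53.0 ± 5.57 with pMIG (SD, n = 3 each), while Itgax, the integrin CD11c, read 26 to 28 in the Blnk samples and 23 to 28 in the pMIG samples. The next brightest of that list, Zbtb46 and Flt3, averaged 63 and 58.7 with Blnk and 67 and 58 with pMIG. The summed dendritic markers were 340 to 394 in the Blnk samples and 290 to 329 in the pMIG samples. These sums include Siglech, and each of the other 7 markers overlapped between the groups. Of 10 T and NK cell markers limma called 0, with 0 at an unadjusted p under 0.05, and their sums overlapped at 424 to 530 in the Blnk samples and 413 to 496 in the pMIG samples. The brightest of these were Cd8a, Cd3e and Cd8b1, at 191, 81.3 and 44.3 with Blnk and 170, 80.7 and 47.0 with pMIG. The part of Mrc1-, Fcgr1- or Siglech-bearing cells in the values of the Toll-like receptor genes was not tested.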

How the data were processed

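The 6 arrays were deposited as a table of 35421 probes. The authors deposited intensities, whole numbers between 3 and 22187, so the scale is linear. The submitters' processing notes name RMA; its version and settings are not given in the sources used here. Planning had assumed log2 values, so the logarithm was taken before the test, with nothing added. Probes were named from the platform annotation, in which 21789 had 1 symbol, 1621 several and 12011 none listed, and the brightest probe of each symbol gave 19938 genes. For 2 listed symbols, Tmem173 and Mb21d1, the probe carried the newer name. Of 152 list entries, 142 were measured.

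The groups were compared in limma 3.58.1 (lmFit, eBayes; R 4.3.3), with group as the only term. P-values were adjusted by Benjamini-Hochberg over the 19938 genes, at a threshold of 0.05. Differences are Blnk minus pMIG. A gene is called dim when its mean log2 value is below the 40th percentile of genes. The fit was tested on simulated data. Precision is limited by having 3 arrays a group.

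The genes described, the lists and the naming rule were chosen with earlier results of these data known. The rule named the 10 genes and Blnk, up to 6 called genes of each pathway list (or the 2 with the smallest p), the 3 brightest markers of each marker list and the 4 nearest profiles of Ly86 and Cd180. Chromosomal neighbours and the remaining genes (Ticam1, Cd14, Il6, Il10, Irf7, Lyz2, Itgax, Blk, Vpreb1, Rag1, Tnf, Il1b, Il12b, Tlr12 and Tlr13) were named after their values were seen.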

Additional observations from a re-analysis of the deposited data

How the results depend on the processing

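With the replicate number as a block, 289 genes were called in all, 4 of the 10 Toll-like receptor genes and partners and 10 of the 97 pathway genes. Deviations from the group means of same-numbered samples correlated over all genes at -0.19, 0.06 and -0.12, so no pairing was seen over all genes. Genes are not independent and differently numbered samples were not set beside these. Whether the numbers pair the samples for single genes therefore cannot be told from these values. Without dim genes 1228 of 11963 genes were called, with an offset of 16 1100, and with an intensity trend and robust prior 1539 genes and 31 pathway genes. Leaving out 1 array gave 267 to 437 genes in all, 3 to 5 of the 10 and 9 to 12 pathway genes. Fewer arrays weaken the test by construction; the cause of the other shifts was not tested. Quantile normalization, median centring and the mean of all probes left these 3 counts within 1.5 times. Median centring moved the median of all genes by -0.04 on the log2 scale. Each of the 6 called genes of the 10 kept its sign under each of 12 or 13 alternatives, and of the 4 others Tlr3 changed sign in 3 of 12. Rounding to whole intensities limits dim genes: 13.7% to 14.1% of probes of an array lay below 16.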
